A study of Mus musculus with 20 samples.

Results

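The 9 genes described here serve liver X receptor signalling and the movement of cholesterol in the liver. They were chosen by name and function: Nr1h3, Abca1, Abcg1, Abcg5, Abcg8, Scarb1, Soat2, Npc1 and Npc2. Each was found by its Ensembl identifier, and all 9 are among the 25238 genes listed in both deposited count tables. The livers came from male C57BL/6J mice given an AAV8 virus by vein at 8 weeks of age, with 20 liver samples in all, 5 for each vector. All were then kept on the diet labelled HF/HS until 25 weeks of age. The vectors carried a hairpin against Pklr (shPKLR), its control, a hairpin against firefly luciferase (shLUC), the Pklr coding sequence (PKLR) or its control, GFP. Pklr encodes the pyruvate kinase of liver and red cells. The series description places both kinds of cargo under the promoter of thyroxine binding globulin, which acts in hepatocytes, while the RNA was taken from whole liver. The labels number the samples of a group as replicates, and p-values measure the spread between them.

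Liver X receptors are nuclear receptors that bind oxysterols, the oxidised products of cholesterol, and pair with the retinoid X receptor on DNA. They turn on genes that remove cholesterol from cells, such as the ATP-binding cassette transporters. Hepatocytes export cholesterol to high-density lipoprotein (HDL) through ABCA1 and to bile through the ABCG5 and ABCG8 pair, take it up from HDL through SR-BI, esterify it with ACAT2, and move it out of lysosomes with NPC1 and NPC2.

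Library totals ran from 29933820 to 45413803 counts, with 167891680 in shPKLR replicate 4. Pklr followed the vectors, at 25.4 to 84.2 counts per 1e6 counts (CPM) in shPKLR livers against 350.4 to 645 CPM in shLUC livers, and at 379 to 924 CPM in PKLR livers against 63.9 to 145 CPM in GFP livers. Levels are CPM on 1 scale, set with TMM (trimmed mean of M values) over all 20 libraries. The hepatocyte markers Alb, Ttr, Serpina1a, Apob and Tat were at 0 in no group and summed to between 56374 and 103952 CPM. Adjusted p-values are from edgeR's quasi-likelihood test with Benjamini-Hochberg adjustment over all genes tested, and a call means an adjusted p under 0.05.

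None of the 9 genes was called in either experiment. All 9 passed the filter on low counts in both. The share of all tested genes that was called was 0.00641% in the knockdown, 1 gene, Pklr itself, and 2.03% in the overexpression, 322 genes. At an unadjusted p under 0.05 there were 2 of the 9 in the knockdown (Abcg5 and Soat2), against 15% of all genes tested. In the overexpression there was 1 of the 9, Scarb1, against 18.8% of all genes tested. The median log2 fold change of the 9 genes was -0.01 in the knockdown and -0.12 in the overexpression, beside 0.02 and 0.01 over all genes tested. By DESeq2, 1 of the 9 was called in the knockdown (Abcg5), where it called 260 of all genes tested. In the overexpression DESeq2 called 0 of the 9 and 1107 of all genes tested. None of the 9 had groups without overlap on the TMM scale of all 20 libraries. For the shares over all genes tested, TMM was set within each experiment. There 1.17% lay wholly above and 2.13% wholly below the controls in the knockdown, and 3.31% above and 1.81% below in the overexpression. Overlap of the 9 genes was not taken on that second scale.

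**Figure D1:**
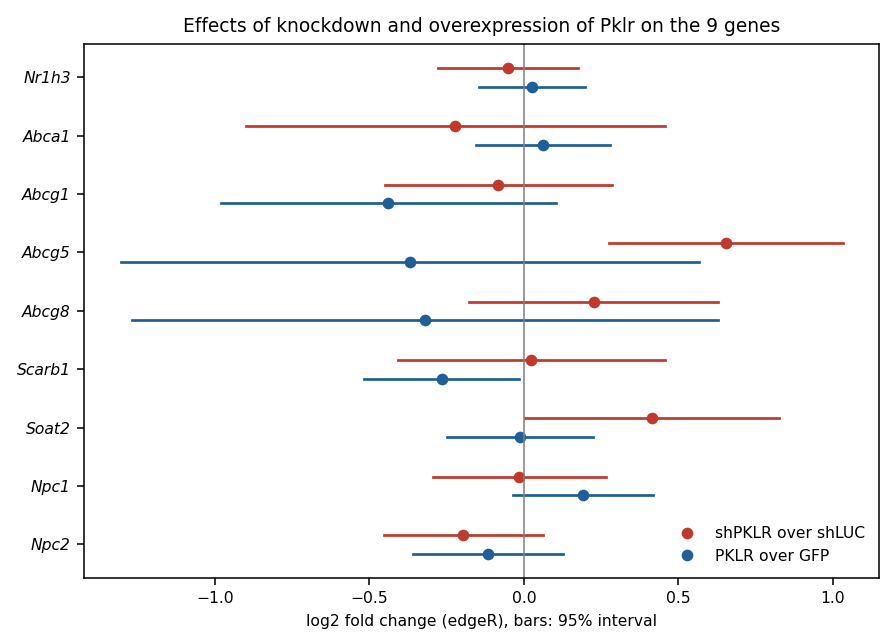
Log2 fold changes from edgeR (points) with 95% intervals (bars) for each gene, shPKLR over shLUC in red and PKLR over GFP in blue. The interval leaves out 0 for Abcg5 (0.28 to 1.03) and Soat2 (0.00 to 0.83) in the knockdown and for Scarb1 (-0.52 to -0.02) in the overexpression, before any adjustment for the number of genes.

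Divided by exon length, the genes differed widely in level. Over the 20 livers Nr1h3 averaged 35.0 CPM per kb, Abcg5 23.4, Abcg8 21.2, Soat2 18.8, Scarb1 17.8, Abca1 10.8, Npc2 10.7 and Npc1 8.75 CPM per kb. Abcg1 was far below the others, at 0.655 CPM per kb. Over the 4 groups, the mean level was highest in GFP livers for Abcg1, Abcg8, Scarb1 and Npc2. It was highest in shPKLR livers for Abcg5 and Soat2, in shLUC livers for Nr1h3 and Npc1, and in PKLR livers for Abca1. For each of the 9 genes, groups next to each other in this order overlapped in their single livers. The 2 experiments are separate tables, so a difference between them cannot be told apart from a difference between vectors.

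**Figure D2:**
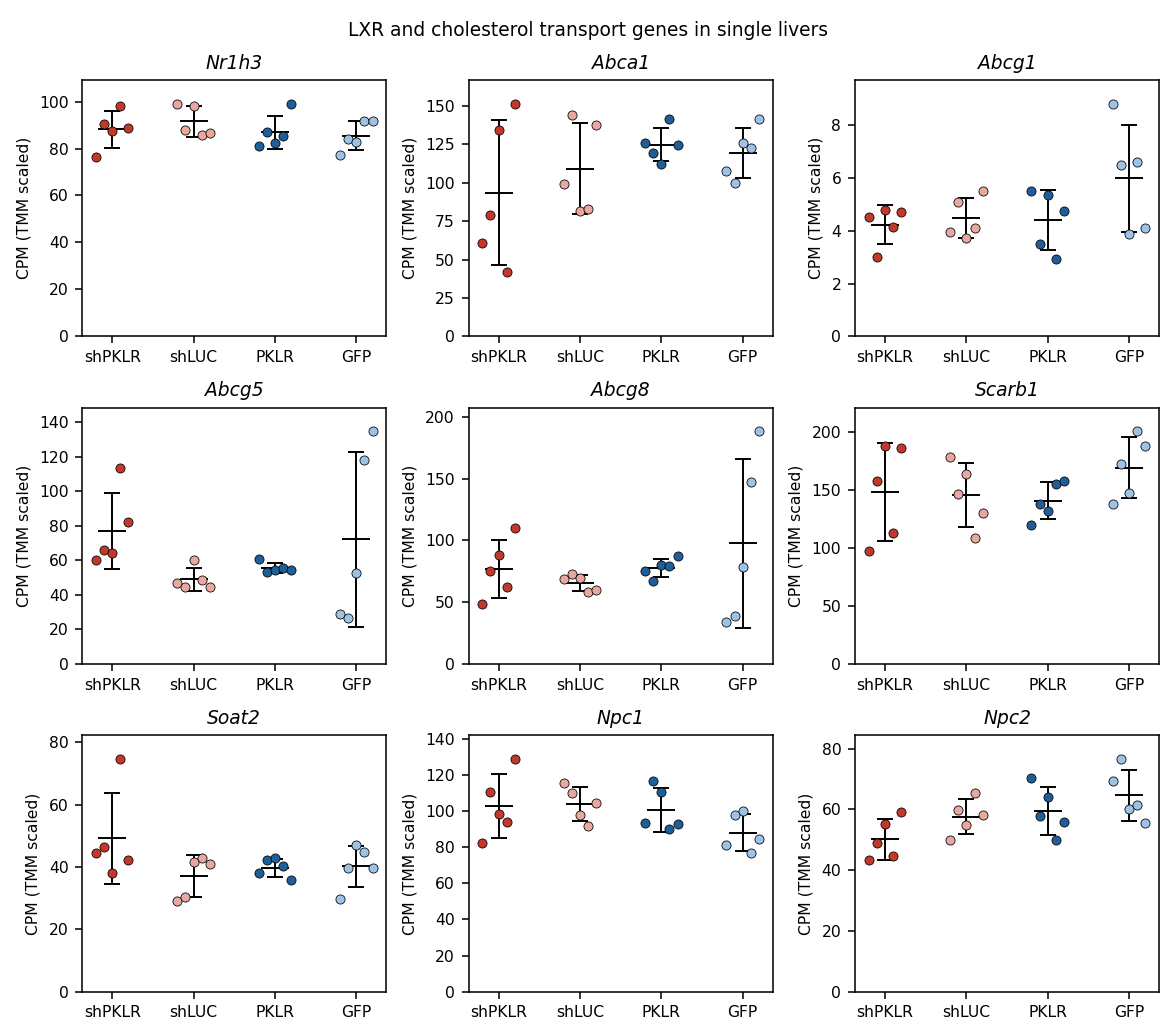
CPM (TMM scaled, vertical axes from 0) of each gene in single livers (points, 5 per group) with the group mean and SD (bars). Abcg5 and Abcg8 spread widely in GFP livers, Abca1 in shPKLR livers, and Nr1h3 differs little between groups.

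Nr1h3 (ENSMUSG00000002108; GRCm38 chromosome 2, 91184061 to 91202834, minus strand) encodes LXRα, the main liver X receptor of hepatocytes. It averaged 88.3 ± 7.85 CPM in shPKLR livers and 91.6 ± 6.53 CPM in shLUC livers (SD, n = 5 each). Its mean was 86.9 ± 7.07 CPM in PKLR livers and 85.5 ± 6.30 CPM in GFP livers (SD, n = 5 each). The log2 fold changes were -0.05 (SE 0.10, 95% interval -0.28 to 0.18) in the knockdown and 0.03 (SE 0.08, 95% interval -0.15 to 0.20) in the overexpression. Neither interval reached beyond 0.28 in size. Single livers of the 4 groups lay between 76.3 and 99.2 CPM, and all groups overlapped.

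ABCG5 and ABCG8 are half-transporters that join into 1 pump, which moves cholesterol and plant sterols from hepatocytes into bile. Both genes lie head to head on chromosome 17. Abcg5 (ENSMUSG00000040505) runs from 84658234 to 84683011 on the minus strand, and Abcg8 (ENSMUSG00000024254) from 84676302 to 84700333 on the plus strand (GRCm38). Their annotated spans overlap, and 82 exonic bases are shared, 3.02% of those of Abcg5 and 2.19% of those of Abcg8. The strand setting of the counting is not given, so reads from these bases may count for either gene. In RefSeq, 1 start site of Abcg8 lies 110 bases from that of Abcg5. Another RefSeq start of Abcg8, at 84676302, lies within Abcg5 and is where the span of Abcg8 given above begins. The stretch between the starts that lie 110 bases apart is shown because it is upstream of both. It is chr17:84683012-84683120 of GRCm38.p6, on the strand of Abcg8, and capitals mark the letters AGATAA, which GATA factors can bind, on either strand.
Abcg5 and Abcg8 shared stretch: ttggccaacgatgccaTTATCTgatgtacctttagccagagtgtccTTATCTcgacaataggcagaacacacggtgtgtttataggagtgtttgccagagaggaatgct
The letters AGATAA occur, on either strand, in 11.2% of the 32851 RefSeq promoter windows of 300 bases. Liver X receptors bind DR4 elements, a pair of AGGTCA half-sites in the same direction with 4 bases between them. No DR4 with up to 3 mismatches in its 12 letters was found on either strand in the RefSeq windows of Abcg5 and Abcg8. A match or its absence describes these windows only.

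In the knockdown, Abcg5 was at 60.1, 65.8, 64.3, 113 and 82.1 CPM in the 5 shPKLR livers, against 46.9, 44.4, 60.4, 48.9 and 44.5 CPM in the 5 shLUC livers. Of the shPKLR livers 4 lay above every shLUC liver, and replicate 1 lay just below shLUC replicate 3. The means were 77.1 ± 21.97 CPM in shPKLR livers and 49.0 ± 6.61 CPM in shLUC livers (SD, n = 5 each), a log2 fold change of 0.65 (SE 0.17, 95% interval 0.28 to 1.03). Its edgeR p was 0.0026, the rank 188 of 15611 genes, and its adjusted p 0.213. By DESeq2 the log2 fold change was 0.65 (SE 0.19, adjusted p = 0.0379). Without shPKLR replicate 4, the deepest library and the one with the highest Abcg5, the edgeR value was 0.48.

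Abcg8 overlapped widely between the groups. It was at 48.6, 75.5, 88.1, 62.3 and 110.4 CPM in shPKLR livers, against 68.6, 73.0, 69.6, 58.0 and 59.6 CPM in shLUC livers. The shPKLR livers lay on both sides of the shLUC livers, with a log2 fold change of 0.23 (SE 0.19, adjusted p = 0.541). Without shPKLR replicate 5 it was 0.07.

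The number of Abcg5 counts per Abcg8 count, which does not depend on scaling, was 1.24, 0.870, 0.729, 1.82 and 0.744 in shPKLR livers, against 0.683, 0.608, 0.867, 0.843 and 0.746 in shLUC livers. Only shPKLR replicates 1 and 4 had more Abcg5 than Abcg8 counts among the 20 livers. The mean log2 ratio was 0.02 ± 0.56 in shPKLR livers and -0.43 ± 0.21 in shLUC livers (SD, n = 5 each). The difference of 0.45 had a two-sided exact permutation p of 0.135 (0.27 adjusted over both experiments). It was 0.23 without shPKLR replicate 4 and 0.56 without shPKLR replicate 3. Over the 10 fits with 1 library left out, the unadjusted exact permutation p ran from 0.0476 to 0.278. Only 1 of these fits, that without shPKLR replicate 3, was under 0.05. In the overexpression the mean log2 ratio was -0.48 ± 0.15 in PKLR livers and -0.43 ± 0.15 in GFP livers (SD, n = 5 each; exact permutation p = 0.627, where 0.00794 is the smallest that 5 against 5 can give).

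In the overexpression experiment Abcg5 was at 60.7, 53.1, 54.6, 55.5 and 54.4 CPM in PKLR livers, against 29.1, 26.9, 52.7, 118 and 135 CPM in GFP livers. Abcg8 was at 75.4, 67.1, 79.8, 79.5 and 87.3 CPM in PKLR livers, against 33.8, 39.0, 78.9, 148 and 189 CPM in GFP livers. For both genes, GFP replicates 1 and 2 lay below all PKLR livers and GFP replicates 4 and 5 above all of them. The highest GFP liver had 5.02 times the Abcg5 and 5.57 times the Abcg8 of the lowest. The log2 fold changes, -0.37 (SE 0.42, adjusted p = 0.684) for Abcg5 and -0.32 (SE 0.43, adjusted p = 0.733) for Abcg8, have intervals from -1.31 to 0.57 and from -1.27 to 0.63. Leaving out GFP replicate 5 moved them to -0.02 and 0.06, and limma-voom gave -0.02 for Abcg8.

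The SD of log2 CPM over livers shows how unlike the 2 groups were. For Abcg5 it was 0.07 in PKLR livers and 1.09 in GFP livers, and for Abcg8 it was 0.14 in PKLR livers and 1.11 in GFP livers. Among the 11815 genes that averaged 2 CPM or more, 8.24% had a smaller SD than Abcg5 in PKLR livers and 99.6% in GFP livers. For Abcg8 these shares were 39.1% in PKLR livers and 99.7% in GFP livers. The difference in spread was not tested. After subtraction of group means, the log2 CPM of Abcg5 and Abcg8 had a Pearson r of 0.86 over 20 livers (permutation p = 0.027, 0.14 adjusted over the 36 pairs of the 9 genes) and a Spearman rho of 0.51 (permutation p = 0.091, adjusted p = 0.32). Without GFP replicates 4 and 5 r was 0.73, but the group means still included those livers, so this r still depends on them in part. Within the overexpression experiment r was 0.98 and within the knockdown 0.10 (10 livers each).

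**Figure D3:**
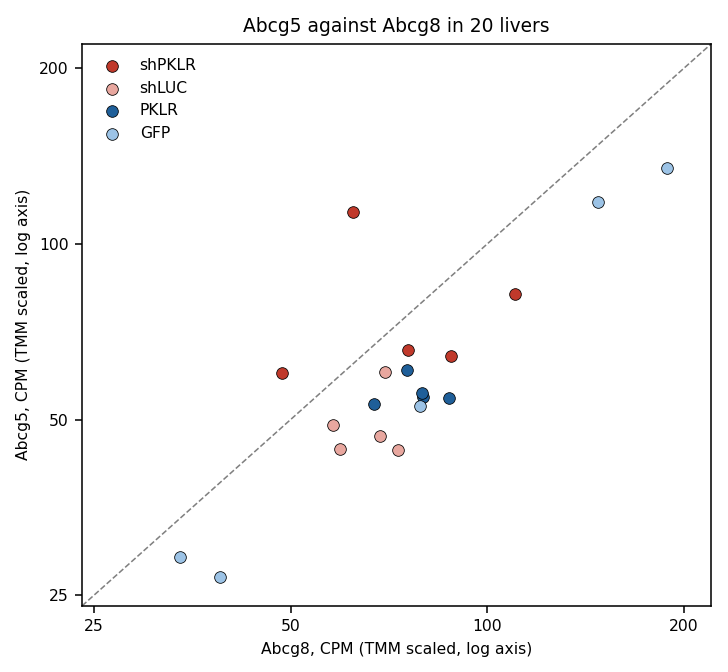
Abcg5 against Abcg8 in CPM (TMM scaled, both axes logarithmic) in 20 livers, with the dashed line at equal values. GFP livers run along and under the line from 26.9 to 135 CPM of Abcg5, PKLR livers lie close together, and shPKLR replicates 1 and 4 are the points above the line.

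Abca1 (ENSMUSG00000015243; GRCm38 chromosome 4, 53030787 to 53159895, minus strand) loads cholesterol and phospholipid onto apolipoprotein A-I, the first step in making HDL, and is a direct liver X receptor target. The 100 bases before its RefSeq start site, chr4:53159896-53159995 on the minus strand of GRCm38.p6, are shown for a match to that receptor's element. Capitals mark the match to the DR4 element, which lies on the opposite strand from 67 to 52 bases before the start with 3 mismatches in 12 letters.
Abca1 upstream: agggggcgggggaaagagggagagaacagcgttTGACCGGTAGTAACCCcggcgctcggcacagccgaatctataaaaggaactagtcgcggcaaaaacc
Read on its own strand the match is the line below, with the spacer in lower case.
Abca1 match: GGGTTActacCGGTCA
A match with up to 3 mismatches on either strand is common, in 21.9% of promoter windows.

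Abca1 was at 61.0, 78.96, 134, 42.2 and 151 CPM in shPKLR livers, against 99.3, 144, 81.7, 83.1 and 138 CPM in shLUC livers. The shPKLR livers held both the lowest and the highest values of the experiment. With a log2 fold change of -0.22 (SE 0.31, adjusted p = 0.726), the interval ran from -0.90 to 0.46. The value was -0.04 without shPKLR replicate 4 and -0.46 without shPKLR replicate 5. In the overexpression the values were 126, 119.5, 112, 141 and 124 CPM in PKLR livers, against 108, 99.97, 126, 122 and 141 CPM in GFP livers. The groups overlapped nearly whole, with a log2 fold change of 0.06 (SE 0.10, 95% interval -0.15 to 0.28). The SD of its log2 CPM was larger than that of 95.9% of genes in shPKLR livers and 92.1% in shLUC livers, and of 29.9% in PKLR livers and 57.8% in GFP livers.

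Abcg1 (ENSMUSG00000024030; GRCm38 chromosome 17, 31057675 to 31117988, plus strand), which passes cholesterol on to HDL and is prominent in macrophages, was at 4.52, 3.02, 4.78, 4.13 and 4.72 CPM in shPKLR livers, against 3.97, 5.08, 3.75, 4.12 and 5.515 CPM in shLUC livers. It was at 5.51, 3.51, 5.37, 2.95 and 4.74 CPM in PKLR livers, against 8.82, 6.50, 3.87, 6.59 and 4.12 CPM in GFP livers. Of the GFP livers 3 lay above every PKLR liver and the other 2 within their range. The log2 fold changes were -0.08 (SE 0.17, adjusted p = 0.817) in the knockdown and -0.44 (SE 0.25, adjusted p = 0.369) in the overexpression, and -0.25 in the overexpression without GFP replicate 1.

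Abcg1 followed macrophage markers from liver to liver. The 12 markers (Adgre1, Cd68, Clec4f, Cd5l, Csf1r, Marco, Vsig4, Lyz2, Cd163, Gpnmb, Trem2 and Itgax) were at 0 in no group. They summed to 135 to 346 CPM in shPKLR livers, 146 to 274 CPM in shLUC livers, 106 to 307 CPM in PKLR livers and 114 to 482 CPM in GFP livers. Less group means, the log2 CPM of Abcg1 and the mean log2 CPM of the markers had an r of 0.95 over 20 livers (permutation p = 2e-05, 0.00018 adjusted over 9 genes) and a rho of 0.88 (permutation p = 1e-04, adjusted p = 9e-04). Without the 2 livers farthest from the median in markers, r was 0.95, with group means still taken over all livers. It was 0.89 within the knockdown and 0.97 within the overexpression (10 livers each). Of the other 8 genes none passed this adjustment; Npc2 was next, with an r of 0.56 (permutation p = 0.026, adjusted p = 0.12) and a rho of 0.50 (permutation p = 0.049, adjusted p = 0.22). Macrophage markers were higher in shPKLR livers in 11 of 12 cases (median log2 fold change 0.47, 0 called). There 2 had an unadjusted edgeR p under 0.05, against 15% of all genes tested. The markers were lower in PKLR livers in 8 of 12 cases and higher in 4 (median -0.40, from -3.55 to 1.46). In the overexpression 1 was called, lower, against 2.03% of all genes tested. An unadjusted edgeR p under 0.05 was found there for 5, against 18.8% of all genes tested. The median was 0.31 in the knockdown without shPKLR replicate 3, and -0.10 in the overexpression without GFP replicate 1. Markers of other cell types were not set against Abcg1 in this way, so whether the relation is particular to macrophages was not tested. In whole liver, fewer cells of a type and less RNA per cell cannot be told apart. The part of the macrophage markers in the Abcg1 values was not tested.

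**Figure D4:**
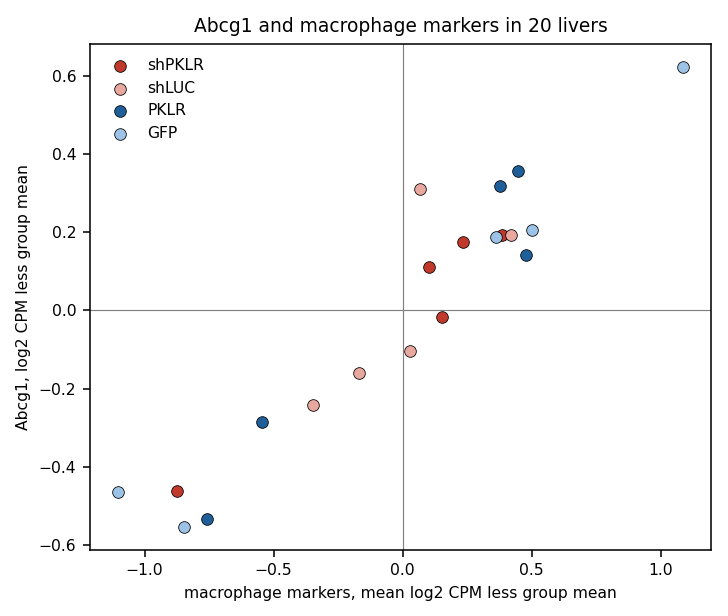
Log2 CPM of Abcg1 (vertical) against the mean log2 CPM of 12 macrophage markers (horizontal), each less its group mean, in 20 livers. Livers of all 4 groups lie along 1 rising band, with GFP replicate 1 at its upper end.

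Scarb1 (ENSMUSG00000037936; GRCm38 chromosome 5, 125277087 to 125341094, minus strand) encodes SR-BI, the receptor that takes cholesterol esters from HDL into hepatocytes. In the overexpression it was at 120.0, 138, 132, 155 and 158 CPM in PKLR livers, against 138, 172, 147, 201 and 188 CPM in GFP livers. Of the GFP livers 3 lay above every PKLR liver. The means were 140.5 ± 15.9 CPM in PKLR livers and 169 ± 26.5 CPM in GFP livers (SD, n = 5 each), a log2 fold change of -0.27 (SE 0.12, edgeR adjusted p = 0.236). With library totals in place of TMM the value was -0.40 (edgeR adjusted p = 0.0804). On that scale all PKLR livers, at 131 to 147 CPM, lay below all GFP livers, at 148 to 217 CPM, as did 3.52% of all genes tested. That scaling also moved the median of all genes by -0.13. In the knockdown Scarb1 was at 97.0, 158, 188, 113 and 186 CPM in shPKLR livers, against 179, 147, 164, 109 and 131 CPM in shLUC livers, with a log2 fold change of 0.02 (SE 0.20, adjusted p = 0.957). Its log2 CPM less group means went with that of Abcg8 by rank, with a rho of 0.79 (permutation p = 0.00033, adjusted p = 0.012) and an r of 0.58 (permutation p = 0.0029, adjusted p = 0.094). Without GFP replicates 1 and 5 r was 0.59, with group means still taken over all livers. It was 0.89 within the knockdown and 0.63 within the overexpression. It was the one pair of 36 that passed the adjustment, by rho alone.

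Soat2 (ENSMUSG00000023045; GRCm38 chromosome 15, 102150526 to 102163469, plus strand) encodes ACAT2, which makes the cholesterol esters that hepatocytes store or secrete. It was at 44.4, 46.4, 38.2, 74.7 and 42.1 CPM in shPKLR livers, against 28.9, 30.4, 41.6, 42.9 and 41.1 CPM in shLUC livers. Replicate 4 stood far above the other shPKLR livers, while replicates 3 and 5 lay within the shLUC range. The log2 fold change of 0.41 (SE 0.19, edgeR adjusted p = 0.331) was 0.22 without shPKLR replicate 4. In the overexpression it was at 37.9, 42.2, 42.8, 40.2 and 35.9 CPM in PKLR livers, against 29.7, 39.6, 46.9, 44.9 and 39.7 CPM in GFP livers. The PKLR livers lay within the range of the GFP livers, and the log2 fold change was -0.01 (SE 0.11, 95% interval -0.25 to 0.22).

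NPC1, in the lysosomal membrane, and NPC2, soluble in the lysosome, pass cholesterol from degraded lipoproteins out to the cell. Npc1 averaged 103 ± 17.9 CPM in shPKLR livers and 104 ± 9.47 CPM in shLUC livers (SD, n = 5 each), with a log2 fold change of -0.01 (SE 0.13, adjusted p = 0.961). In the overexpression its mean was 101 ± 12.1 CPM in PKLR livers and 88.2 ± 10.4 CPM in GFP livers (SD, n = 5 each), a log2 fold change of 0.19 (SE 0.10, adjusted p = 0.345). Npc2 (ENSMUSG00000021242; GRCm38 chromosome 12, 84754562 to 84773152, minus strand) averaged 50.2 ± 6.70 CPM in shPKLR livers and 57.6 ± 5.72 CPM in shLUC livers (SD, n = 5 each). Its log2 fold change was -0.20 (SE 0.12, adjusted p = 0.422). With Pklr overexpressed it averaged 59.6 ± 7.90 CPM in PKLR livers and 64.6 ± 8.38 CPM in GFP livers (SD, n = 5 each), a log2 fold change of -0.12 (SE 0.11, adjusted p = 0.619). Both genes overlapped between groups in both experiments.

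The effect of overexpression less that of knockdown was tested in 1 model of all 20 livers. None of the 9 genes was called by edgeR or DESeq2, against 5.5% of 16407 genes tested called by edgeR and 1626 genes called by DESeq2. At an unadjusted edgeR p under 0.05 there was 1 of the 9, Abcg5, against 25.7% of all genes. Abcg5 came nearest, with a difference of -1.05 on the log2 scale (SE 0.46, 95% interval -2.01 to -0.09, edgeR adjusted p = 0.161), or -0.70 without GFP replicate 5. Soat2 was at -0.45 (SE 0.23, adjusted p = 0.221), or -0.25 without shPKLR replicate 4. Abcg8 was at -0.57 (SE 0.47, adjusted p = 0.458), or -0.19 without GFP replicate 5, and Scarb1 was at -0.31 (SE 0.24, adjusted p = 0.42).

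Other genes of the same pathways were read beside these 9. Of 17 other genes associated with liver X receptors, 5 were higher and 12 lower in shPKLR livers (median log2 fold change -0.13, 0 called). There 6 had an unadjusted edgeR p under 0.05, against 15% of all genes tested. In PKLR livers 6 were higher and 11 lower (median -0.06), with 3 at an unadjusted edgeR p under 0.05, against 18.8% of all genes tested. In that experiment 1 was called, against 2.03% of all genes tested. That gene was Lpl, lipoprotein lipase, which fell to 13.9 ± 4.38 CPM in PKLR livers, against 49.5 ± 20.1 CPM in GFP livers (SD, n = 5 each), a log2 fold change of -1.83 (SE 0.33, adjusted p = 0.0237). When single libraries were dropped, the Lpl call held in 5 of 10 fits. It was lost without GFP replicate 1, 2 or 4 or PKLR replicate 3 or 4 (highest adjusted p 0.0587) and with no filter on low counts (adjusted p = 0.059). In the knockdown Lpl was at 28.5 ± 10.3 CPM in shPKLR livers and 12.85 ± 1.95 CPM in shLUC livers (SD, n = 5 each; adjusted p = 0.109). The difference between the effects on Lpl was -3.00 (SE 0.41, adjusted p = 0.000505). Macrophages also express Lpl. Beside the macrophage values above, stellate cell markers were lower in PKLR livers in 7 of 7 cases (median log2 fold change -0.64, 0 called). Lymphocyte markers were lower there in 7 of 7 (median -0.60, or -0.33 without GFP replicate 1), with 1 called, against 2.03% of all genes tested. An unadjusted edgeR p under 0.05 was found for 6 stellate and 3 lymphocyte markers, against 18.8% of all genes tested. The stellate markers, none at 0 in a group, summed to 128 to 239.6 CPM in PKLR livers and 194 to 406 CPM in GFP livers. The lymphocyte markers, none at 0 in a group, summed to 10.5 to 16.3 CPM in PKLR livers and 13.9 to 29.5 CPM in GFP livers. The part of these cell types in the Lpl values was not tested. Pltp, the phospholipid transfer protein of plasma, had a log2 fold change of -1.49 (SE 0.33, adjusted p = 0.15) in the knockdown and -0.04 (SE 0.31, adjusted p = 0.955) in the overexpression. Rgs16, a regulator of G protein signalling, was at -0.84 (SE 0.61, adjusted p = 0.49) in the knockdown and 1.16 (SE 0.40, adjusted p = 0.156) in the overexpression.

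No partner receptor or cofactor passed the test. Of 11 genes 0 were called in either experiment. In shPKLR livers 5 were higher and 6 lower (median log2 fold change -0.05), with 0 at an unadjusted edgeR p under 0.05, against 15% of all genes tested. In PKLR livers 10 were higher and 1 lower (median 0.12), with 4 at an unadjusted edgeR p under 0.05, against 18.8% of all genes tested. Nr5a2, the receptor LRH-1, had a log2 fold change of -0.28 (SE 0.15) in the knockdown and 0.28 (SE 0.10, adjusted p = 0.154) in the overexpression. The coactivator gene Ncoa2 was at -0.33 (SE 0.24) in the knockdown and 0.21 (SE 0.07, adjusted p = 0.113) in the overexpression.

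Among 22 tested genes of other cholesterol transport steps, 14 were higher and 8 lower in PKLR livers (median log2 fold change 0.08). Of these, 2 were called, each higher, against 2.03% of all genes tested, and 4 had an unadjusted edgeR p under 0.05, against 18.8%. In shPKLR livers 9 were higher and 13 lower (median -0.05). There 0 were called and 6 had an unadjusted edgeR p under 0.05, against 15% of all genes tested. Osbp, an oxysterol-binding protein that exchanges lipids between membranes, was at 56.3 ± 2.50 CPM in PKLR livers and 43.6 ± 2.43 CPM in GFP livers (SD, n = 5 each), a log2 fold change of 0.37 (SE 0.06, adjusted p = 0.0158). The Osbp call held whichever of the 10 libraries was dropped, but not in 1 fit of all 20 libraries (adjusted p = 0.0941) or with library totals (adjusted p = 0.13). Stard4, a carrier of cholesterol in the cytosol, was at 76.0 ± 9.74 CPM in PKLR livers and 45.2 ± 12.03 CPM in GFP livers (SD, n = 5 each), a log2 fold change of 0.75 (SE 0.17, adjusted p = 0.0481). The Stard4 call held in 2 of 10 fits with single libraries dropped, those without GFP replicate 3 or 5. It was lost with RLE size factors (adjusted p = 0.053), with no filter on low counts (adjusted p = 0.0633) and with the filter at 1 CPM (adjusted p = 0.0519). In the knockdown Osbp had a log2 fold change of -0.49 (SE 0.14, adjusted p = 0.224) and Stard4 one of -0.70 (SE 0.18, adjusted p = 0.198). The differences between the effects, 0.83 (SE 0.15, adjusted p = 0.00402) for Osbp and 1.43 (SE 0.26, adjusted p = 0.00366) for Stard4, were called in the model of all livers.

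Targets of SREBP2, the factor that raises cholesterol synthesis and uptake, are set beside the 9 genes for scale. All 18 were lower in shPKLR livers (median log2 fold change -1.03, 0 called). There 17 had an unadjusted edgeR p under 0.05, against 15% of all genes tested. In PKLR livers 17 were higher (median 0.82), and 6 were called, each higher, against 2.03% of all genes tested. In that experiment 16 had an unadjusted edgeR p under 0.05, against 18.8% of all genes tested. Of the 18, 17 were called in the test of the difference between the effects, where 0 of the 9 genes were. The calls in the overexpression included Mvd (log2 fold change 1.77, SE 0.25, adjusted p = 0.0109) and Fdps (log2 fold change 1.32, SE 0.27, adjusted p = 0.0383), enzymes of the mevalonate pathway. Each fold change is against its own control, and the controls were unlike in level. Mvd averaged 35.2 ± 14.3 CPM in shLUC livers and 6.79 ± 2.75 CPM in GFP livers (SD, n = 5 each). Its mean was 9.92 ± 4.74 CPM in shPKLR livers and 23.1 ± 5.04 CPM in PKLR livers (SD, n = 5 each). When single libraries were dropped, Mvd held in all 10 fits and Fdps in 3 (those without GFP replicate 2 or 4 or PKLR replicate 5). Fdps was not called with library totals (adjusted p = 0.0699), with no filter on low counts (adjusted p = 0.0791) or in 1 fit of all 20 libraries (adjusted p = 0.0614). In the knockdown Insig1, a brake on SREBP2, was at -1.10 (SE 0.15, adjusted p = 0.0509) and Dhcr7, a late enzyme of cholesterol synthesis, at -0.98 (SE 0.18, adjusted p = 0.109).

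**Figure D5:**
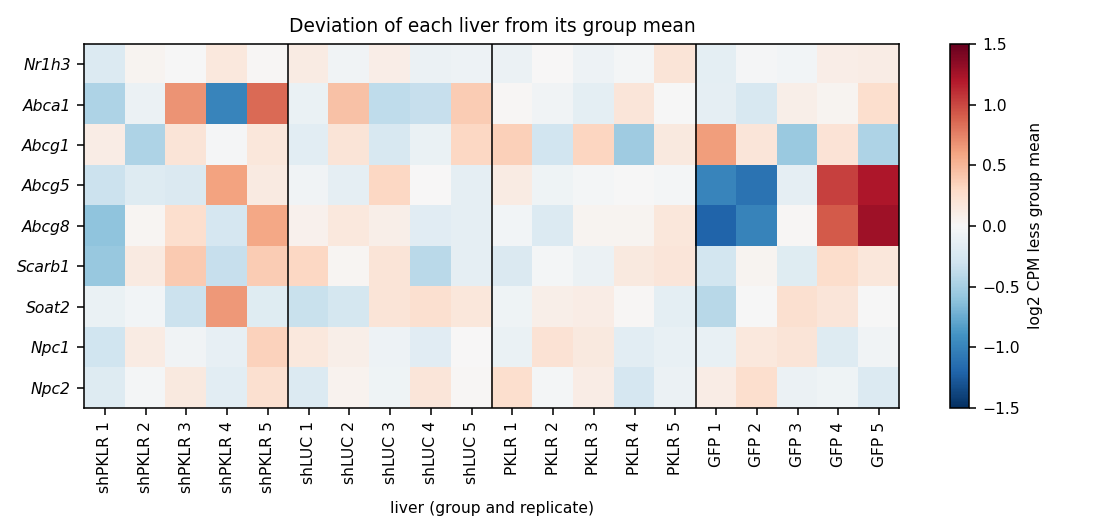
Log2 CPM of each of the 9 genes (rows) in each liver (columns, by group and replicate), less the mean of its group, in colour from -1.5 (blue) to 1.5 (red). The strongest colours are those of Abcg5 and Abcg8 in GFP replicates 1, 2, 4 and 5 and of Abca1 in shPKLR replicates 4 and 5.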

How the data were processed

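Whole-liver RNA of 20 mice was sequenced from stranded total RNA libraries, per the labels' protocols. Each experiment has a table of raw read counts by Ensembl gene, deposited without normalization. Column names gave the library, and 0 columns were left over. The submitters' processing notes list HISAT2 and DESeq2, and the builds GRCm38 and mm10, with no role or version. How reads were counted, strand included, is not given in the sources used here. Symbols, coordinates and exon lengths came from GENCODE M21 (GRCm38), and promoter sequences from RefSeq (GRCm38.p6), which held windows for 5 of the 9 genes, each from 250 bases before to 50 after a start site.

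Tests used edgeR 4.0.16 in R 4.3.3 (quasi-likelihood, robust, TMM, filterByExpr; 15611 genes in the knockdown, 15842 in the overexpression, 16407 in the model of all livers). SEs were taken as the absolute log2 fold change over the root of the F statistic. Alternatives included limma 3.58.1 (voom) and DESeq2 1.42.0. Log2 CPM had a prior count of 2 and count ratios a pseudocount of 0.5. Permutations of centred values (100000) were made within groups. Where livers were left out of an r, values stayed centred on the group means of all livers. Dixon's test looked for single livers that stand apart. The fits were tested on simulated counts, drawn for each gene independently at its fitted dispersion. Of the 2-fold changes put in, edgeR called 75.3% in the knockdown, 78% in the overexpression and 46.1% in the difference of effects. Calls among unchanged genes numbered 9, 11 and 4 in the same order. Shared variation between genes from liver to liver was not simulated, so these shares are not the power for the 9 genes. Labels do not say that equal replicate numbers share a litter or day, so numbers were not taken as pairs. The genes, lists and tests were chosen with earlier results of these data known. Named were all 9 genes and, from each other list, called genes (at most 4) or else the 2 with the smallest p; some genes that this rule names are not reported here. Nearest genes had the highest r of centred log2 CPM among the 11815 genes that averaged 2 CPM or more. The comparison of Abcg1 with macrophage markers was added after the values were seen.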

Additional observations from a re-analysis of the deposited data

Results flagged for a closer look

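In 2 of 40 sets of 5 livers (the 9 genes and the log2 ratio of Abcg5 to Abcg8 counts in the 4 groups), 1 liver stood apart from its group by Dixon's test, which marks about 5% of such sets by chance. Soat2 was at 74.7 CPM in shPKLR replicate 4, against 38.2 to 46.4 CPM in the other shPKLR livers. That liver gave the deepest library. Abcg5 was at 60.4 CPM in shLUC replicate 3, against 44.4 to 48.9 CPM in the other shLUC livers.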

How the results depend on the processing

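Across the settings tried, 0 of the 9 genes were called in any comparison, except for Abcg5 in the knockdown by DESeq2 (1 gene), and 0 with any 1 library left out. The count of all genes called varied more. In the knockdown it was 1, and 7 with RLE size factors or without mitochondrial and ribosomal RNA genes, 17 with no filter, 260 by DESeq2, 8 by limma-voom, 3 with the replicate number as a block, 114 in 1 fit of all 20 libraries, and 9 with library totals without TMM, a setting chosen after seeing the data. It ran from 1 to 12 with 1 library left out. In the overexpression the 322 calls became 1107 by DESeq2, 544 with the replicate block and 193 with library totals (58 up and 135 down, where TMM gave 188 up and 134 down), and 128 to 469 with 1 library left out. For the difference of effects the 902 calls (451 up and 451 down, where library totals gave 236 up and 714 down) became 1626 by DESeq2 and 485 to 1384 with 1 library left out.

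Some log2 fold changes turned sign. With library totals these were Nr1h3 (0.0023 in the knockdown, -0.10 in the overexpression, -0.11 in the difference), Npc1 (0.046 in the knockdown), Abca1 (-0.056 in the overexpression) and Npc2 (-0.10 in the difference). That scaling moved the median of all genes by -0.13 in the overexpression and -0.15 in the difference. Npc1 in the knockdown was at 0.0050 when genes had to pass 1 CPM in 5 libraries, and Soat2 in the overexpression at 0.00067 by limma-voom and 0.0013 with the replicate block. Leaving out 1 library gave ranges that cross 0 in the knockdown for Npc1 (-0.10 to 0.049), Scarb1 (-0.072 to 0.14) and Abcg1 (-0.13 to 0.014). In the overexpression these were Nr1h3 (-0.028 to 0.053), Soat2 (-0.10 to 0.054) and Abcg8 (-0.54 to 0.064, the last without GFP replicate 5). The log2 ratio of Abcg5 to Abcg8 ran from 0.23 to 0.56 in the knockdown and from -0.092 to 0.0026 in the overexpression. Same-numbered livers deviated together in some pairs only (r from -0.28 to 0.43 in the knockdown and from -0.09 to 0.27 in the overexpression). Such values cannot show whether livers of equal number share a litter or day. The replicate block changed no call among the 9 genes, and removed those of Lpl (adjusted p = 0.0655) and Stard4 (adjusted p = 0.0662) in the overexpression. The cause of these changes was not tested. Abcg1, at 2.95 to 8.82 CPM, is the least deeply counted of the 9.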

Other observations

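The gene whose log2 CPM, less group means, was most like that of a member over 20 livers was another member for Abcg5 alone, which had Abcg8 first (r = 0.86) and Adrm1 second (r = 0.85). Abcg8 had Mfsd4b1 (r = 0.89) and Zfp862-ps (r = 0.87). For Abcg1 these were Soat1 (r = 0.95), the cholesterol acyltransferase of macrophages and other cells, and Evl (r = 0.95). Abca1 had Efna5 (r = 0.98) and Epas1 (r = 0.96), Scarb1 had Gprc5c (r = 0.89) and Ubac2 (r = 0.88), and Nr1h3 had Map2k2 (r = 0.90) and Syngr2 (r = 0.89). Soat2 had Zfp276 (r = 0.94) and Vwce (r = 0.93), Npc1 had Snx30 (r = 0.86) and Rnf152 (r = 0.85), and Npc2 had Tns3 (r = 0.86) and Itpripl2 (r = 0.83). These r were picked as the highest of 11815 genes in the same 20 libraries and carry no test.

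Within groups, the level of Pklr itself was compared with each of the 9 genes over 20 livers. None of the 9 relations passed adjustment. The largest r was that of Abca1 (r = 0.43, permutation p = 0.15, adjusted p = 0.65; rho = 0.34, permutation p = 0.23, adjusted p = 0.84), which was 0.33 without shPKLR replicate 4 and PKLR replicate 4, 0.60 within the knockdown and 0.06 within the overexpression.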
